A study of Mus musculus with 3 samples.

Results

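The chemokine ligand genes are the small secreted guidance proteins of the CC, CXC, XC and CX3C families. They were taken as every entry whose symbol begins with Ccl or Cxcl and a number, together with Xcl1, Cx3cl1, Pf4 and Ppbp. The rule uses symbols and no expression value, though it was set with earlier results of these data known. This gave 43 genes under 49 entries, out of 48568 gene symbols under 48808 entries. Of the 43 genes, 28 reached 1 FPKM (the fragments of a gene divided by its transcript length and by the size of the library) in at least 1 library, 10 stayed below 1 FPKM, and 5 were listed at 0 in every library.

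The comparison addresses sex differences in node genes that guide the traffic of immune cells. RNA was sequenced from whole popliteal lymphnodes, the nodes that drain the hind foot, of untreated C57Bl/6 mice at 5 months of age. The groups were wildtype females (6 mice), SryHi males (3 mice) and wildtype males (6 mice). SryHi males are XY-Sry+ males of the FCG model, in which Sry, the gene that starts testis development, was deleted from the Y chromosome and put back as an autosomal transgene, so that Sry is overexpressed. Stroma, lymphocytes and myeloid cells of the node were sequenced together. The mice of a group were pooled into 1 library, so each gene has 1 value per group, no difference below has a replicate check, and no test between groups was made. A lower value in a whole node can come from fewer cells of a type or from less RNA per cell, and these cannot be told apart.

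Chemokines bind heparan sulphate on cells and matrix and act through G protein coupled receptors on leukocytes, so that cells move toward the source. In a resting lymphnode, Ccl19, Ccl21 and Cxcl13 made by stromal cells place T cells, dendritic cells and B cells in their zones, and Cxcl12 acts on almost every leukocyte through Cxcr4. The inflammatory chemokines are made on demand by macrophages, stromal cells and lymphocytes and draw monocytes, neutrophils or effector T cells. Many of these genes lie in clusters that arose by duplication, with the main CC clusters of the mouse on chromosome 11 and the CXC clusters on chromosome 5.

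The libraries held about 5.55e+06 fragments in females, 5.35e+06 in SryHi males and 6.15e+06 in wildtype males, estimated from the spacing of the lowest FPKM values because no counts were used here. Sry had 20.8 FPKM in SryHi males and was listed at 0 in females and wildtype males, Xist had 395 FPKM in females, and B cell genes summed to between 999 and 1052 FPKM, as the labels of sex, transgene and tissue would have it. Neutrophil genes differed more: the 11 neutrophil markers summed to 56.1 FPKM in females, 89.0 FPKM in SryHi males and 355 FPKM in wildtype males. The 8 T cell markers summed to 453, 251 and 337 FPKM in the same order. The 5 adipocyte markers summed to 54.5, 134 and 55.1 FPKM, and 4 of 4 measured were 2-fold higher in SryHi than in wildtype males. Ratios are given as log2 of FPKM + 1, a scale that understates differences of low genes, and only where the mean over a pair of libraries was 1 FPKM or more. Beside them stand FPKM ratios with an approximate 95% exact binomial interval from the estimated fragments, which covers counting error only. Rescaling to TPM, by which each library sums to the same total, moved the median of all genes to -0.15 for females and to 1.28 for SryHi males over wildtype males, against 0.01 and 0.04 with FPKM. A direction on the TPM scale is therefore read against these medians. Each TPM ratio below is a log2 ratio of TPM + 1. TPM values were smaller than FPKM values in every library, so the added 1 shrinks these ratios more, above all for low genes. A 2-fold difference or a rank that is lost with TPM can come from this.

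Together the 43 genes summed to 799 FPKM in females, 1097 FPKM in SryHi males and 1101 FPKM in wildtype males. The 4 highest, Cxcl12, Cxcl13, Ccl5 and Ccl8, held 76.4%, 79.3% and 81.1% of these sums. The Ccl19 and Ccl21 genes share sequence with near-identical copies, so their part in these sums is uncertain. In the plot of levels by library the remaining genes spread from 33.0 FPKM down to below 1 FPKM. Of the 28 genes that reached 1 FPKM, 8 were highest in females, 11 in SryHi males and 9 in wildtype males, and over all 16789 genes at that level the shares were 31.3%, 40.4% and 28.3%.

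**Figure D1:**
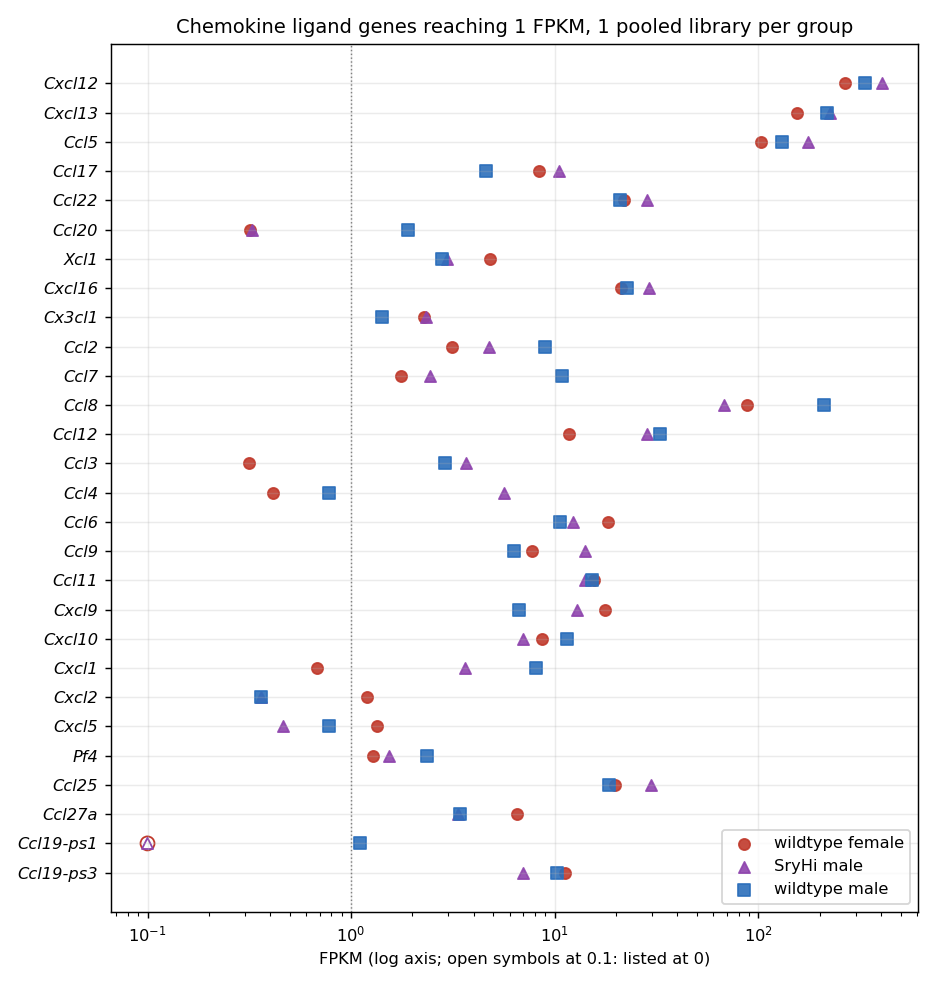
FPKM (log axis) of the 28 chemokine ligand genes that reached 1 FPKM, in order of their roles, in the libraries of wildtype females (red circles), SryHi males (purple triangles) and wildtype males (blue squares), with open symbols for values listed at 0. Cxcl12, at 265, 403 and 335 FPKM in the 3 libraries, stands at the top of the range, and Ccl2, Ccl7, Ccl8, Ccl12 and Cxcl1 have their wildtype male value to the right of both other libraries.

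In females over wildtype males, 25 of the 43 genes were measured. At a 2-fold difference 1 was higher, Cxcl9, and 7 were lower, Ccl2, Ccl3, Ccl7, Ccl8, Ccl12, Ccl20 and Cxcl1. Lower genes thus made up 28.0% of those measured, where 2.77% of all genes were lower, and higher genes 4.0%, where 2.83% of all genes were higher. Among protein-coding genes with a transcript of at least 300 nt the shares were 1.55% lower and 0.793% higher. The median log2 ratio over the 25 genes was -0.10, with quartiles of -1.14 and 0.39, against 0.01 over all 15523 genes. The lower quartile lay far below 0 while the centre of the family did not: 12 genes were above 0 and 13 below. With TPM + 1, the 25 genes had 0 higher and 4 lower, Ccl7, Ccl8, Ccl12 and Cxcl1, at 1.01% and 1.54% of all genes.

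In SryHi males over wildtype males 3 of 25 measured genes were higher, Ccl4, Ccl9 and Ccl17, and 3 were lower, Ccl7, Ccl8 and Ccl20. Each made up 12.0% of the genes measured, where 3.7% of all genes were higher and 4.14% were lower, and among protein-coding genes 1.96% and 1.94%. The median log2 ratio was 0.06, against 0.04 over all 15566 genes, with quartiles of -0.49 and 0.43. These counts rest on the FPKM scale: with TPM they became 15 higher and 0 lower, where 69.0% of all genes were higher. Both comparisons use the same wildtype male library, so a gene that is high or low in that library moves both ratios.

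**Figure D2:**
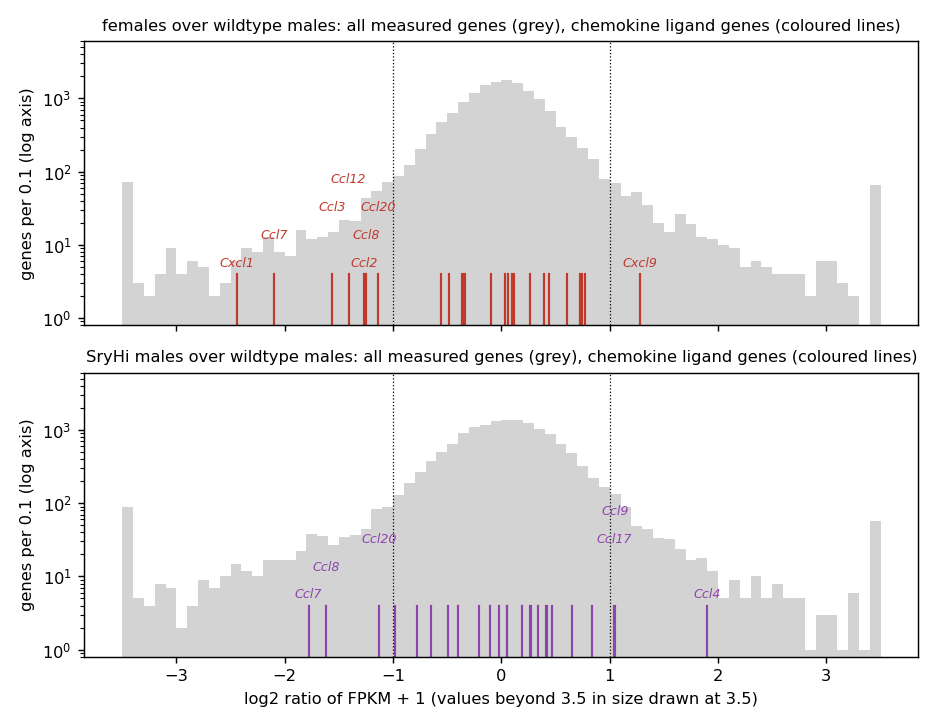
Numbers of genes (log axis) by log2 ratio of FPKM + 1 for females over wildtype males (top) and SryHi males over wildtype males (bottom), with all measured genes in grey, the chemokine ligand genes as coloured lines and 2-fold differences as dotted lines. In females 7 chemokine lines lie beyond the 2-fold line on the lower side and 1 on the higher side, and in SryHi males 3 lie beyond it on each side (with TPM these became 4 and 0 in females, and 0 and 15 in SryHi males).

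The largest group of lower genes was that of the monocyte attracting chemokines. Ccl2, Ccl7, Ccl8 and Ccl12 summed to 105 FPKM in females and 103 FPKM in SryHi males, against 263 FPKM in wildtype males. Most of each sum was Ccl8, at 87.9, 67.7 and 210.0 FPKM. For Ccl2, Ccl7 and Ccl12 the SryHi value lay between those of females and wildtype males. All 4 were at least 2-fold lower in females, with a median log2 ratio of -1.34, and 2 of 4 were in SryHi males, with a median of -1.20. With TPM + 1 all 4 stayed below 0 in females, where Ccl2 at -0.94 was short of 2-fold. In SryHi males 1 of 4, Ccl7, stayed below 0 with TPM + 1, and 3 of 4 lay below the median of all genes.

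Ccl8, a chemokine of tissue macrophages that in the mouse acts through Ccr8, had 87.9 FPKM in females and 67.7 FPKM in SryHi males, against 210.0 FPKM in wildtype males. The values rest on about 249, 185 and 660 fragments. Wildtype male nodes had the most by a wide margin, with FPKM ratios of 0.418 (95% counting interval 0.36 to 0.485) for females and 0.322 (0.272 to 0.38) for SryHi males. The log2 ratios were -1.25 and -1.62. On the TPM scale the ratio was -1.47 for females, and for SryHi males it turned to 0.03, which is under the all-gene median of 1.28. Ccl12, a mouse Ccr2 ligand, lies next to Ccl8 on chromosome 11. It had 11.8 FPKM in females and 28.4 FPKM in SryHi males, against 33.0 FPKM in wildtype males. Here the libraries parted differently, with females alone low: the FPKM ratio was 0.357 (0.234 to 0.534) for females and 0.861 (0.632 to 1.17) for SryHi males, an interval that includes 1.

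Both genes are shown by their promoters, since they are neighbours with similar start regions that differ in the SryHi library. The sequences are those of RefSeq on GRCm38.p6, from 250 bases before to 50 bases after the start, both on the + strand, at chr11:82114935-82115234 for Ccl8 and chr11:82101595-82101894 for Ccl12. Capitals mark matches to TATAAA, the TATA box letters, searched on both strands.
Ccl8: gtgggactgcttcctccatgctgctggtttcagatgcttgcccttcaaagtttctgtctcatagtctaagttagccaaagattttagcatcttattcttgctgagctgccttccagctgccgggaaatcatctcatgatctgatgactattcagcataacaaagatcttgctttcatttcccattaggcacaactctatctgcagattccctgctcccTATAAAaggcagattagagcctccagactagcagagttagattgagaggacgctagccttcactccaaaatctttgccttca
Ccl12: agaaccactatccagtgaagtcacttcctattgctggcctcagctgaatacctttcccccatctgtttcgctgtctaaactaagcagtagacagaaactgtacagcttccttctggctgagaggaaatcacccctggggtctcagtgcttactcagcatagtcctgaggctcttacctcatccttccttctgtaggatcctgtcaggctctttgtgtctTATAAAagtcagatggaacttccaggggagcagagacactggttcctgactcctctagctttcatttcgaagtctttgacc
The match begins 32 bases before the start of Ccl8 and 31 bases before that of Ccl12. Of 29 chemokine ligand genes with a promoter in the RefSeq table, 9 held these letters (31.0%), among them Ccl9, Cxcl9 and Cxcl13, and 14.2% of all 27025 promoters of the same length did. A match describes letters and not a site in use.

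Ccl7, which acts through Ccr1, Ccr2 and Ccr3, had 1.76 FPKM in females and 2.45 FPKM in SryHi males, against 10.8 FPKM in wildtype males. With about 8, 10 and 53 fragments the FPKM ratios were 0.163 (0.0667 to 0.344) for females and 0.226 (0.102 to 0.448) for SryHi males, and the log2 ratios were -2.10 and -1.78. On the TPM scale both stayed below 0, at -1.39 and -0.33. Ccl2, the main Ccr2 ligand and the classical monocyte chemoattractant, had 3.12 FPKM in females and 4.76 FPKM in SryHi males, against 8.91 FPKM in wildtype males. The order of the libraries was that of Ccl7 with a smaller gap, and the FPKM ratios were 0.351 (0.19 to 0.616) and 0.535 (0.315 to 0.883). In SryHi males the log2 ratio of -0.78 did not reach 2-fold, and on the TPM scale it was 0.56, below the median of all genes.

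These 4 genes share a cluster of 6 chemokine genes on chromosome 11 of GRCm38, from Ccl2 at 82035571-82037453 over Ccl7 at 82045712-82047525, Ccl11 at 82057823-82062955 and Ccl12 at 82101845-82103400 to Ccl8 at 82115185-82116799, all on the + strand, and Ccl1 beyond it. Ccl11, the eosinophil chemokine eotaxin, lies in the middle and did not share the pattern. It had 15.6 FPKM in females and 14.1 FPKM in SryHi males, against 15.2 FPKM in wildtype males, with log2 ratios of 0.03 and -0.10 (-0.17 and 1.33 with TPM). The cluster therefore had 4 of 5 measured genes lower in females around 1 gene at the same level, as the plot of the clusters shows. Ccl1, a Ccr8 ligand, had 0.431 FPKM in females and 0.439 FPKM in SryHi males and was listed at 0 in wildtype males, with 1 fragment at most.

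**Figure D3:**
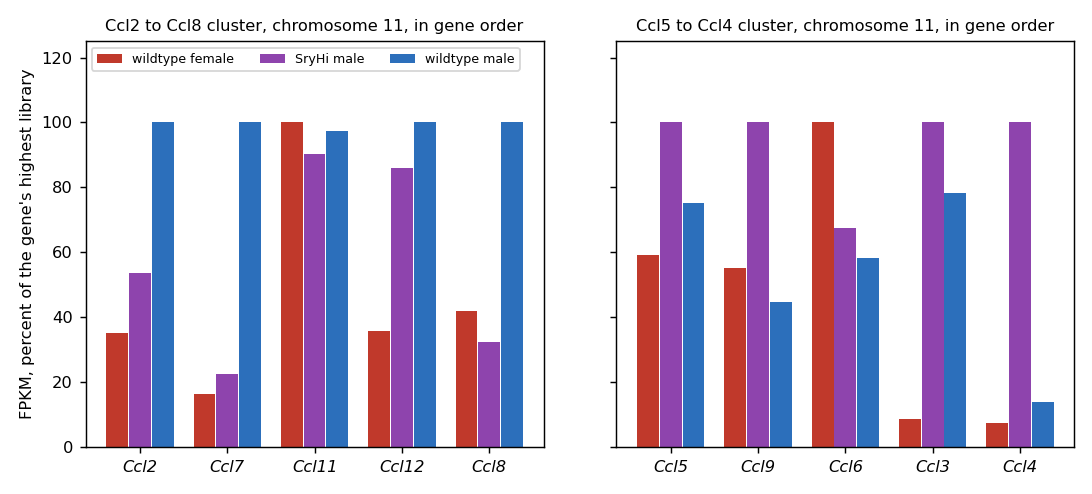
FPKM of the genes of both CC clusters of chromosome 11 as a percent of the gene's highest library, in the order of the genes along the chromosome, for wildtype females (red), SryHi males (purple) and wildtype males (blue). In the cluster from Ccl2 to Ccl8 the wildtype male bar is highest for each gene but Ccl11, and in the cluster from Ccl5 to Ccl4 the SryHi bar is highest for each gene but Ccl6.

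Markers of cells that make or follow these chemokines moved in part with them. Of 11 measured macrophage and monocyte markers 1 was 2-fold lower in females, Marco, and 10 were below 0, with a median log2 ratio of -0.66. In SryHi males 0 were lower and the median was -0.02. The markers summed to 997 FPKM in females and 1244 FPKM in SryHi males, against 1309 FPKM in wildtype males. Mast cell markers had 3 of 7 lower in females and 0 of 7 in SryHi males, and the 11 neutrophil markers had 9 of 10 measured lower in females and 8 of 10 in SryHi males. The part of these cells in the chemokine values was not tested. Ccr2, the receptor on monocytes, had 31.3 FPKM in females and 58.5 FPKM in SryHi males, against 33.2 FPKM in wildtype males. It did not follow its ligands Ccl2, Ccl7 and Ccl12, with log2 ratios of -0.08 and 0.80, and it was picked with its values known.

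In the second CC cluster of chromosome 11 each gene but Ccl6 was highest in the SryHi library, where 40.4% of all genes at 1 FPKM were highest. It runs from Ccl5 at 83525778-83530518 over Ccl9 at 83572919-83578636, Ccl6 at 83587882-83593087 and Ccl3 at 83647844-83649355, all on the - strand, to Ccl4 at 83662584-83664683 on the + strand. The genes summed to 129.9 FPKM in females and 210.2 FPKM in SryHi males, against 152 FPKM in wildtype males. In SryHi males 5 of 5 measured genes were above 0, with a median log2 ratio of 0.41, and with TPM 4 of 5 lay above the median of all genes. Of all 15566 genes 8319 were above 0 there, and the counting intervals of Ccl3 and Ccl6 include 1. In females 2 of 4 measured genes of the cluster were above 0, with a median of -0.04.

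Ccl4, a chemokine of activated T cells, NK cells and macrophages, had 0.412 FPKM in females and 5.64 FPKM in SryHi males, against 0.777 FPKM in wildtype males. Its log2 ratio of 1.90 was the largest of the family in SryHi males with FPKM + 1, but not with TPM + 1. The FPKM ratio of 7.26 had a wide counting interval of 2.15 to 38.2, since the values rest on about 2, 20 and 3 fragments. Females and wildtype males had too little of it for a ratio between them to be measured. Ccl3, its neighbour, which binds Ccr1, had 0.314 FPKM in females and 3.69 FPKM in SryHi males, against 2.88 FPKM in wildtype males. Females alone stood low, at 1 fragment against 14 in wildtype males, an FPKM ratio of 0.109 (0.00258 to 0.716). The log2 ratio of -1.56 became -0.66 with TPM + 1, where the added 1 weighs heavily on so low a gene. In SryHi males the FPKM ratio of 1.28 had an interval of 0.576 to 2.86.

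Ccl9, a Ccr1 ligand of macrophages and myeloid cells in rodents, had 7.77 FPKM in females and 14.1 FPKM in SryHi males, against 6.3 FPKM in wildtype males. The SryHi value stood above both others, with an FPKM ratio of 2.24 (1.65 to 3.06) and a log2 ratio of 1.05, and the TPM ratio of 2.21 lay above the median of all genes. Ccl6, another rodent Ccr1 ligand, was the one gene of the cluster that was highest in females, at 18.2 FPKM there and 12.3 FPKM in SryHi males, against 10.6 FPKM in wildtype males. The FPKM ratio for females was 1.72 (1.19 to 2.49), and that for SryHi males, 1.16 (0.77 to 1.74), includes 1. Ccl5, a chemokine of memory T cells and NK cells, had 103 FPKM in females and 175 FPKM in SryHi males, against 131 FPKM in wildtype males. With about 344, 560 and 484 fragments the FPKM ratios of 0.787 (0.683 to 0.905) and 1.33 (1.18 to 1.5) lay beyond counting error on opposite sides of 1, though neither reached 2-fold. NK and cytotoxic markers summed to 51.0 FPKM in females and 62.8 FPKM in SryHi males, against 60.9 FPKM in wildtype males, with medians of -0.04 and 0.37, and their part in Ccl5 was not tested.

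**Figure D4:**
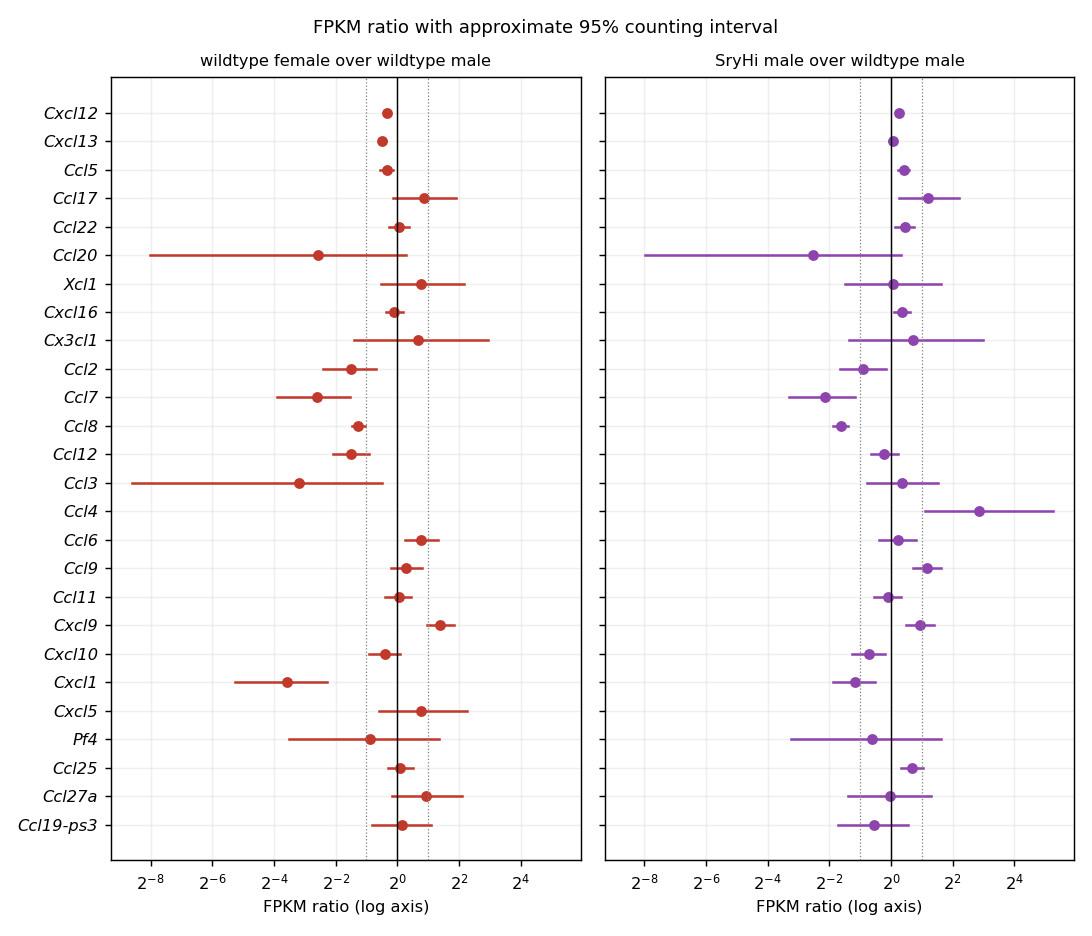
FPKM ratios (log axis) of the chemokine ligand genes measured in each comparison, for wildtype females (left) and SryHi males (right) over wildtype males, with bars for the approximate 95% counting interval, which holds no variation between mice, and dotted lines at 2-fold. The interval of Cxcl9 in females, 1.97 to 3.57, lies above 1, those of Ccl7, Ccl8 and Cxcl1 lie below 1 in both panels, and those of Ccl20 cross 1; with TPM the log2 ratios of Ccl8 and Cxcl1 in SryHi males were 0.03 and 0.34.

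Among the neutrophil attracting Cxcr2 ligands, Cxcl1 had the lowest log2 ratio of the family in females on the FPKM + 1 scale. With TPM + 1, which shrinks the ratios of low genes more, Ccl7, Ccl8 and Ccl12 were lower. Cxcl1 had 0.678 FPKM in females and 3.61 FPKM in SryHi males, against 8.12 FPKM in wildtype males, on about 5, 27 and 71 fragments. Females were 12.0-fold lower than wildtype males, an FPKM ratio of 0.0834 (0.0263 to 0.204) and a log2 ratio of -2.44. SryHi males lay between, with an FPKM ratio of 0.444 (0.274 to 0.701) and a log2 ratio of -0.99, just short of the 2-fold line on the FPKM + 1 scale. With TPM the log2 ratios were -1.36 and 0.34, both below the median of all genes.

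Cxcl2 lies near Cxcl1 on chromosome 5 and acts on the same receptor, and its highest value, in females, rests on few fragments. It had 1.2 FPKM in females and 0.361 FPKM in SryHi males, against 0.36 FPKM in wildtype males. Its FPKM ratio of 3.33 in females had an interval of 0.858 to 18.8, since it rests on about 10 and 3 fragments, and the mean of each pair was below 1 FPKM, so no ratio was counted. Cxcl5, a Cxcr2 ligand of stromal and epithelial cells, had 1.34 FPKM in females and 0.463 FPKM in SryHi males, against 0.78 FPKM in wildtype males, and its log2 ratio for females was 0.39. Cxcl3 was listed at 0 in females and SryHi males, with 0.196 FPKM in wildtype males. Cxcl15 had 0.178 FPKM in females and was listed at 0 in both males, and Ppbp, the platelet basic protein gene, had 0.243, 0.281 and 0.216 FPKM in the 3 libraries. Cxcl1 was thus the single Cxcr2 ligand above 2 FPKM in any library.

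The promoters of Cxcl1 and Cxcl2 are shown because these neighbours carry the same kappa B letters. Cxcl2 had too few fragments for its order of the libraries to be set against that of Cxcl1. They come from the + strand at chr5:90890995-90891294 for Cxcl1 and chr5:90903649-90903948 for Cxcl2, as RefSeq gives them on GRCm38.p6. Capitals mark matches to GGGA, any 2 bases, then TTCC on either strand, where the matches of both strands overlap by all but 1 base.
Cxcl1: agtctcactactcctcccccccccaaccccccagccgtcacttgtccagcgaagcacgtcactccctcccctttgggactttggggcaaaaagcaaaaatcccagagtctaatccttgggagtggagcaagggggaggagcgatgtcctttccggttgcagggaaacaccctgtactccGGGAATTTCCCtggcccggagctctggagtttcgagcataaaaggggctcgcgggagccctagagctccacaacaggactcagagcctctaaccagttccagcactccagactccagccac
Cxcl2: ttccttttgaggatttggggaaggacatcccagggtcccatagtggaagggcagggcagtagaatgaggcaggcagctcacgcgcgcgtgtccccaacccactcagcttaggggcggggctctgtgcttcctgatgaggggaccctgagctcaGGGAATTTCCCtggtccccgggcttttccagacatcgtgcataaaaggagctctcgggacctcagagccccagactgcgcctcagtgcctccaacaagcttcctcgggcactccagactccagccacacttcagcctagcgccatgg
The first match starts 71 bases before the start of Cxcl1 and 97 bases before that of Cxcl2. These letters stood in 5 of the 29 chemokine promoters (17.2%), those of Ccl1, Cxcl1, Cxcl2, Cxcl3 and Cxcl10, and in 1.43% of all promoters. Of the 5 genes, Cxcl1 alone differed beyond counting error between females and wildtype males. The intervals of Cxcl10 (0.535 to 1.07) and Cxcl2 (0.858 to 18.8) include 1, and Ccl1 and Cxcl3 had at most 1 and 3 fragments. Whether the 5 genes share a direction could therefore not be read.

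Neutrophil genes moved with Cxcl1 across the libraries. S100a8, a calprotectin subunit of neutrophils, had 23.4 FPKM in females and 41.2 FPKM in SryHi males, against 141 FPKM in wildtype males, and S100a9 had 20.2, 23.3 and 117 FPKM in the same order. The 10 measured neutrophil markers had a median log2 ratio of -2.44 in females and -1.91 in SryHi males, and with TPM all 10 stayed below the median of all genes in both. Cxcr2 itself had 6.06 FPKM in females and 8.02 FPKM in SryHi males, against 11.4 FPKM in wildtype males, with log2 ratios of -0.82 and -0.46 (-0.75 and 0.92 with TPM). Ly6g, a defining neutrophil marker, had at most 0.777 FPKM. The part of neutrophils in the Cxcl1 values was not tested. Pf4, platelet factor 4, had 1.28 FPKM in females and 1.54 FPKM in SryHi males, against 2.36 FPKM in wildtype males, on 3, 3 and 6 fragments. Among the platelet markers, Gp6 was listed at 0 in every library and Itga2b alone reached 1 FPKM.

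The interferon-inducible Cxcr3 ligands, which draw effector T cells and NK cells, split in both comparisons. Cxcl9 had 17.7 FPKM in females and 12.8 FPKM in SryHi males, against 6.71 FPKM in wildtype males, on about 160, 112 and 67 fragments. It was the single chemokine ligand gene at least 2-fold higher in females, with an FPKM ratio of 2.64 (1.97 to 3.57) and a log2 ratio of 1.28, and SryHi males had an FPKM ratio of 1.91 (1.4 to 2.62) and a log2 ratio of 0.84. With TPM + 1 the log2 ratio of females was 0.79, short of 2-fold on a scale where the added 1 weighs more than with FPKM. Cxcl10, its neighbour, had 8.69 FPKM in females and 6.95 FPKM in SryHi males, against 11.5 FPKM in wildtype males. The wildtype male value was the highest here and the lowest for Cxcl9, and the FPKM ratios of Cxcl10 were 0.758 (0.535 to 1.07) for females, which includes 1, and 0.606 (0.413 to 0.879) for SryHi males. The TPM ratio of SryHi males was 0.74, below the median of all genes. Cxcl11, which the annotation of this strain lists as a polymorphic pseudogene, had 0.275, 0.284 and 0.242 FPKM in females, SryHi males and wildtype males.

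Both promoters are given because Cxcl9 and Cxcl10 answer to interferons and lie 1 after the other on the - strand of chromosome 5 while the wildtype male library is lowest for the first and highest for the second. They are at chr5:92328030-92328329 for Cxcl9 and chr5:92348840-92349139 for Cxcl10, on GRCm38.p6 from RefSeq, written along the gene's own strand.
Cxcl9: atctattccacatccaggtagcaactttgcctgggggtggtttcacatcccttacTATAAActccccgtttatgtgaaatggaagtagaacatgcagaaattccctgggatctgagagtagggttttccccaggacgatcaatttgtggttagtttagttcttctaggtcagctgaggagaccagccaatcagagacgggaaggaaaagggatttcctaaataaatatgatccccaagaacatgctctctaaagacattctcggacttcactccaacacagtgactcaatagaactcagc
Cxcl10: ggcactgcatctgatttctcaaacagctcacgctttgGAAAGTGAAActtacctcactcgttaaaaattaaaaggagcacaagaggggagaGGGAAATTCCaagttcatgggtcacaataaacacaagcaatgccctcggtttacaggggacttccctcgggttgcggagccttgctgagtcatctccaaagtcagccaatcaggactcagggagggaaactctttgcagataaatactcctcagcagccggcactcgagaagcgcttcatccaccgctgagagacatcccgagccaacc
Capitals mark TATAAA in Cxcl9, starting 195 bases before the start. In Cxcl10 they mark the core of the interferon-stimulated response element (GAAA, any 2 bases, GAAA), 213 bases before the start, and the kappa B letters, 159 bases before it. The response element letters were searched on both strands and stood in 3 of 29 chemokine promoters (10.3%), those of Ccl19, Cxcl10 and Cxcl14, and in 3.49% of all promoters. TTCNNNGAA, the letters of the gamma-activated site, stood in 2 of 29 (6.9%), Ccl17 and Cxcl14, and in 8.47% of all promoters.

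The genes of the interferon gamma pathway showed no 2-fold difference in either comparison. Of 8 measured genes 5 were above 0 in females, with a median log2 ratio of 0.20, and 6 were above 0 in SryHi males, with a median of 0.06; with TPM 3 were above 0 in females, and 5 and 8 lay above the medians of all genes. Jak1, a kinase of the receptor, had 142, 138 and 152 FPKM in females, SryHi males and wildtype males. Gbp2, an interferon-induced GTPase, had 24.0 FPKM in females and 20.8 FPKM in SryHi males, against 16.2 FPKM in wildtype males, log2 ratios of 0.54 and 0.34. Wildtype males had the lowest value of Cxcl9 and of Gbp2, and not of Cxcl10. Ifng stayed below 1 FPKM in all libraries.

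Among genes with a value under their own symbol, the homeostatic chemokines Cxcl12 and Cxcl13 held the highest levels, and neither differed 2-fold in FPKM. Ccl19 and Ccl21 could not be ranked, since they share sequence with near-identical copies. Cxcl12, made by reticular and endothelial stroma, had 265 FPKM in females and 403 FPKM in SryHi males, against 335 FPKM in wildtype males, on about 4429, 6501 and 6206 fragments. The FPKM ratio was 0.791 (0.761 to 0.822) for females and 1.2 (1.16 to 1.25) for SryHi males, so each differed beyond counting error without reaching 2-fold. Cxcl13, the B cell follicle chemokine, had 155 FPKM in females and 225 FPKM in SryHi males, against 216 FPKM in wildtype males. Females were lower, at an FPKM ratio of 0.714 (0.659 to 0.774), and SryHi males stood at the wildtype male level within counting error, at 1.04 (0.965 to 1.12). The TPM ratios of Cxcl12 and Cxcl13 were -0.59 and -0.73 in females, below the median of all genes, and 1.92 and 1.70 in SryHi males, above it. Lymph node stroma markers had medians of -0.61 in females and -0.43 in SryHi males, with 1 of 8 and 2 of 8 genes 2-fold lower, and B cell markers had medians of 0.03 and -0.06. Lymphatic endothelium markers had medians of -0.805 in females and 0.143 in SryHi males, and blood endothelium markers had medians of -0.241 and 0.327. The part of stroma and endothelium in these values was not tested.

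Of their receptors, Cxcr5 was near level and Cxcr4 was not. Cxcr5, the Cxcl13 receptor, had 41.5 FPKM in females and 44.1 FPKM in SryHi males, against 46.9 FPKM in wildtype males. Cxcr4, the Cxcl12 receptor, had 50.8 FPKM in females and 47.5 FPKM in SryHi males, against 88.4 FPKM in wildtype males, with log2 ratios of -0.79 and -0.88 (-0.99 and 0.74 with TPM). In the lymphotoxin pathway, which keeps the stromal chemokines on, 0 of 9 genes were 2-fold different in females, with a median of -0.14, and 1 of 9 was lower in SryHi males. That gene was Ltb, the membrane anchor of lymphotoxin, with 85.5 FPKM in females and 42.3 FPKM in SryHi males, against 95.0 FPKM in wildtype males, log2 ratios of -0.15 and -1.15 (-0.40 and 0.48 with TPM). Ltbr, its receptor, had 4.56 FPKM in females and 7.88 FPKM in SryHi males, against 7.73 FPKM in wildtype males. The part of Ltb in the Cxcl12 and Cxcl13 values was not tested.

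Ccl19 and Ccl21, the Ccr7 ligands of the T cell zone, were low or listed at 0 under their own symbols. Ccl19 had 0.538 FPKM in females and 0.303 FPKM in SryHi males, against 0.885 FPKM in wildtype males, on at most 4 fragments. Ccl21a, Ccl21b and Ccl21c were listed at 0 in every library. Ccl19, Ccl21a and Ccl21b stand on chromosome 4 among near-identical copies, and Ccl21c is annotated on an unplaced scaffold. How reads that fit several copies were assigned is not given in the sources used here, and a listed 0 was not read as absence. Of the stretches of 50 bases in Ccl19 transcripts 52.0% occur in another gene, and the shares were 71.6% in Ccl21a and 100% in Ccl21b. Ccl19-ps3, a pseudogene whose stretches are all shared, had 11.3 FPKM in females and 7.02 FPKM in SryHi males, against 10.3 FPKM in wildtype males, and Ccl19-ps1 was listed at 0, 0 and 1.11 FPKM. Both exceeded the Ccl19 value in at least 1 library, and the share of each source was not tested.

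1 copy of Ccl21 without a Ccl symbol was not at 0. Gm10591, at chr4:42612195-42612860 on the + strand, is annotated as a protein-coding gene, falls outside the symbols chosen here and was picked after its value was seen. It had 31.4 FPKM in females and 0.646 FPKM in SryHi males, against 3.69 FPKM in wildtype males, on about 70, 1 and 9 fragments. Females were higher than wildtype males at an FPKM ratio of 8.53 (4.24 to 19.4), and SryHi males had a ratio of 0.175 with an interval of 0.004 to 1.26. The first 100 coding bases of 3 copies, from GENCODE M21 transcripts, show how little separates them, with capitals at the bases where copies differ.
Ccl21a: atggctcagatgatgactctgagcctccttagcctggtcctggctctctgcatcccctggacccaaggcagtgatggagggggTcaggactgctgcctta
Ccl21b: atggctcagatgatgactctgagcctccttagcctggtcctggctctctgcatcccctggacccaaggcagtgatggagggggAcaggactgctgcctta
Gm10591: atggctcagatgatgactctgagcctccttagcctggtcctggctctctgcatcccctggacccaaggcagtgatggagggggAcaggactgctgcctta
Over the 402 coding bases, Ccl21a differs from Gm10591 at 2 positions, and Ccl21b, Gm13304 and Gm21541 differ from it at 0. All stretches of 50 bases of the Gm10591 transcript occur in another copy, and 71.7% occur in Ccl21a. Gm13304 and Gm21541 were listed at 0 in every library. Which Ccl21 gene gave the fragments cannot be told apart, and the Gm10591 values are uncertain to that extent. Ccr7, the shared receptor, had 44.5 FPKM in females and 22.4 FPKM in SryHi males, against 41.2 FPKM in wildtype males, log2 ratios of 0.11 and -0.85. T cell markers were above 0 in 8 of 8 genes in females (6 of 8 with TPM), with a median of 0.49, and below 0 in 7 of 8 in SryHi males, with a median of -0.48, where all 8 were above 0 with TPM and 7 of 8 lay below the median of all genes.

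The chemokines that act between T cells and dendritic cells, Ccl5 among them, had 6 of 7 genes above 0 in SryHi males, with a median log2 ratio of 0.41, and with TPM 4 of 7 above the median of all genes. In females 4 of 7 were above 0, with a median of 0.06. Over all genes 8319 of 15566 were above 0 in SryHi males and 7962 of 15523 in females. Ccl17 and Ccl22, the Ccr4 ligands of dendritic cells, flank Cx3cl1 on chromosome 8. Ccl17 had 8.36 FPKM in females and 10.5 FPKM in SryHi males, against 4.6 FPKM in wildtype males. Wildtype males were lowest, and the FPKM ratios were 1.82 (0.916 to 3.73) for females, which includes 1, and 2.29 (1.19 to 4.59) for SryHi males, a log2 ratio of 1.04. Ccl22 had 21.8 FPKM in females and 28.3 FPKM in SryHi males, against 20.9 FPKM in wildtype males, and the SryHi ratio of 1.36 (1.1 to 1.68) stayed below 2-fold. Cx3cl1, a chemokine on a membrane stalk, had 2.27 FPKM in females and 2.33 FPKM in SryHi males, against 1.41 FPKM in wildtype males. By its median transcript length of 466 nt these rest on about 6, 6 and 4 fragments. Its longest transcript has 3315 nt, so the fragments may be more. All 3 genes of this cluster were above 0 in both comparisons, with medians of 0.44 and 0.46, but with TPM Ccl22 fell below 0 in females and Cx3cl1 fell below the median of all genes in SryHi males. Dendritic cell markers had 0 of 6 genes at 2-fold in either comparison, with medians of -0.08 and 0.10.

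Cxcl16, a membrane-bound chemokine of macrophages and dendritic cells that binds Cxcr6, had 21.2 FPKM in females and 29.0 FPKM in SryHi males, against 22.7 FPKM in wildtype males. Its log2 ratios were -0.10 and 0.34. Cxcr6 had the largest log2 ratio of FPKM + 1 in size among the 20 and 19 receptors measured in females and SryHi males, a rank that TPM does not keep, with 15.9 FPKM in females and 17.8 FPKM in SryHi males, against 8.54 FPKM in wildtype males, log2 ratios of 0.83 and 0.98 (0.45 and 2.24 with TPM, both above the medians of all genes). Xcl1, made by NK cells and CD8+ T cells to draw Xcr1+ dendritic cells, had 4.79 FPKM in females and 2.94 FPKM in SryHi males, against 2.8 FPKM in wildtype males. It was highest in females, at a log2 ratio of 0.61, on about 14, 8 and 9 fragments. The FPKM ratio for females, 1.71 (0.691 to 4.49), includes 1. Ccl20, the Ccr6 ligand, had 0.319 FPKM in females and 0.327 FPKM in SryHi males, against 1.9 FPKM in wildtype males. Both differences counted as 2-fold, at log2 ratios of -1.14 and -1.13, but they rest on 1, 1 and 9 fragments, and the intervals of the FPKM ratios, 0.00382 to 1.21 and 0.00392 to 1.24, include 1.

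The remaining genes are known mainly from epithelia. Ccl25, the Ccr9 ligand of thymus and small intestine, had 19.8 FPKM in females and 29.6 FPKM in SryHi males, against 18.5 FPKM in wildtype males. The SryHi value stood above both others, at an FPKM ratio of 1.6 (1.24 to 2.06). Exons of Ccl25 overlap Elavl1 on the opposite strand, as do exons of Ccl27a with Il11ra1, Cxcl10 with Art3, Cxcl16 with Zmynd15 and Xcl1 with Gm20743. The libraries were stranded, but whether the counting used strand is not given in the sources used here, so these values may hold reads of the partner. Ccl27a, a skin chemokine that binds Ccr10, had 6.55 FPKM in females and 3.35 FPKM in SryHi males, against 3.42 FPKM in wildtype males. Its ratio in females, 1.91 (0.891 to 4.29), includes 1, and 45.0% of its stretches of 50 bases occur in another gene. Its copy Ccl27b, and Ccl26, were listed at 0 in every library.

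The other genes stayed below 1 FPKM. Cxcl14 had 0.207 FPKM in females and 0.492 FPKM in SryHi males, against 0.686 FPKM in wildtype males, on at most 7 fragments. Ccl28, a mucosal Ccr10 ligand, had 0.146 FPKM in females, was listed at 0 in SryHi males and had 0.0873 FPKM in wildtype males. Ccl24, an eotaxin, had 0.368 FPKM in SryHi males and Cxcl17 had 0.345 FPKM in wildtype males, with the other libraries listed at 0. At these depths a difference between the libraries was not detectable for them.

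Fewer receptors than ligands reached a 2-fold difference, though the lists were not tested against each other. Of 23 chemokine receptor genes 21 reached 1 FPKM. At 2-fold 0 of 20 measured receptors differed in females, with a median log2 ratio of 0.14, and 0 of 19 in SryHi males, with a median of 0.05. With TPM these medians were -0.08 and 1.25, near those of all genes. The genes that trim chemokines or present them on heparan sulphate likewise had 0 of 8 at 2-fold in both comparisons, with medians of -0.27 and 0.05. Of all genes 2.83% were 2-fold higher and 2.77% lower in females, and 3.7% and 4.14% in SryHi males. At such shares lists this short can hold none, so the counts of 0 were not read as a trait of these genes. Dpp4, the protease that clips the first residues of Cxcl9, Cxcl10 and Cxcl12, had 70.0 FPKM in females and 53.7 FPKM in SryHi males, against 44.4 FPKM in wildtype males, log2 ratios of 0.65 and 0.27. Adam10, a sheddase of Cx3cl1 and Cxcl16, had 39.3 FPKM in females and 62.2 FPKM in SryHi males, against 47.0 FPKM in wildtype males.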

How the data were processed

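RNA of whole popliteal lymphnodes was pooled per group into 1 stranded, ribosome-depleted library and sequenced from both ends. Per the study's methods the authors aligned reads with HiSat2 and made the deposited FPKM values with Cufflinks and Cuffdiff on mm10, with versions not given in the sources used here. Each of the 2 deposited tables, females with wildtype males and SryHi with wildtype males, has 48808 entries. The wildtype male FPKM differed between them in 2 entries. The authors' log2 fold changes, test statistics, p-values, q-values and calls also stand there and were not used.

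Members and gene lists were chosen with earlier results of these data known. All 43 genes are accounted for, those that reached 1 FPKM with every library's value. From a list of other genes at most the 2 highest in FPKM and the 2 largest in log2 ratio of a comparison were eligible, and not all of them are named. Ccr2, Ccr7, Ifng, Ly6g, Gp6 and Gm10591 were chosen after their values were seen. Some genes of the lists are not reported here by name.

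Entries of 1 symbol were summed. Log2 ratios of FPKM + 1 were taken within 1 table where the pair averaged at least 1 FPKM, and counted at 2-fold, the study's threshold. An FPKM keeps no count. Depth was read from the spacing of FPKM times length in genes with 1 transcript of 700 to 8000 nt, and is approximate. Fragments per gene used the median transcript length, and 95% intervals were exact binomial (Clopper-Pearson) and cover counting error only. Genes, positions and overlaps came from GENCODE M21 on GRCm38, which held 98.6% of the entries, and shared sequence was found by stretches of 50 bases. Promoters (29 of 43 genes matched) came from RefSeq on GRCm38.p6, with motifs searched on both strands. The alternatives were a pseudocount of 0.1 FPKM, a mean of at least 5 FPKM, no filter, TPM + 1, centring on protein-coding genes, 1 entry per symbol, and no filter on status. The log2 ratios and the 2-fold calls were tested on simulated libraries with known changes. The depth estimate, the intervals, the shared stretches and the motif search were not tested in this way. Python 3.11.15, pandas 2.3.3, numpy 2.4.6, scipy 1.17.1 and matplotlib 3.10.9 were used.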

Additional observations from a re-analysis of the deposited data

How the results depend on the processing

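TPM was the setting that changed most. For females over wildtype males it gave 0 higher and 4 lower chemokine ligand genes, with a median log2 ratio of -0.30, and a mean of at least 5 FPKM also gave 4 lower, of 17 genes left. For SryHi over wildtype males TPM gave 15 higher and 0 lower, with a median of 1.33, and Ccl8 turned to 0.034. FPKM totals of 5.15e+06 in females, 1.35e+06 in SryHi males and 4.29e+06 in wildtype males set this shift by construction. The 1 added to the smaller TPM values also shrank the ratios of low genes in both comparisons. Relative to the median of all genes the chemokine median was -0.14 in females and 0.05 in SryHi males with TPM, against -0.10 and 0.02 with FPKM. For single genes, 27 of 50 log2 ratios were labelled the same with TPM, 22 moved and 1 reversed, that of Ccl8 in SryHi males. The first label does not mean a close value: Ccl17 in SryHi males went from 1.04 to 2.085 under it. More ratios changed sign than the reversed label shows, such as Ccl2 in SryHi males, from -0.782 to 0.558. The pseudocount, the filter on low values, centring, the choice of entry and the status filter moved none of the genes left beyond counting error, and kept every other count within 1.5 times. No entry had a failed status, so that filter removed 0 entries.

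No paired analysis was possible because each group is 1 pooled library, and for the same reason no replicate was left out. Variation between mice is unknown. Genes under about 10 fragments in a library are limited by depth. Among them are Ccl1, Ccl4, Ccl19 and Pf4, and of the genes counted lower in females Ccl3, Ccl7, Ccl20 and Cxcl1. The Ccl19, Ccl21 and Ccl27 genes are limited by shared sequence. Genotype and pool size cannot be told apart in SryHi males.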
